A study of Bos taurus with 10 samples.

Results

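Desmosomes and adherens junctions are the anchoring contacts that hold the epithelium of the blastocyst together, and 10 genes that encode their core proteins, of 17498 gene names on the array, were followed here in day-7 bovine embryos. They were the desmosomal cadherins DSG2, DSC2 and DSC3, the plaque proteins JUP, PKP2 and PKP3, the cytoskeletal linker DSP, the classical cadherin CDH1 and the catenins CTNNB1 and CTNNA1. Every non-control probe of the array whose gene name in the scanner files was one of these symbols was taken, which gave 31 of 43653 probes. Embryo RNA from superovulated cows was hybridised to 1-colour bovine oligonucleotide arrays, 1 array per sample. Per the labels, the cows received an infusion of senktide, a peptide that activates the neurokinin-3 receptor, at 30 nmol/min (n = 4 samples) or 300 nmol/min (n = 4 samples), or of vehicle (n = 2 samples, treatment given as DMSO). The senktide infusion lasted 2 h and began 48 h into superovulation, all groups were inseminated at 108 and 120 h, and embryos were collected on day 7 after the first insemination. All groups therefore share superovulation. Neither the number of cows behind a group nor the number of embryos in a sample is stated in the labels, so the p-values cover the spread from sample to sample, part of which may be technical. The labels also speak of endometrium in the extraction text, while the titles, source and tissue fields name embryos.

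In an adherens junction the extracellular part of E-cadherin (CDH1) binds the same protein on the neighbouring cell, and its cytoplasmic tail binds beta-catenin (CTNNB1), which recruits alpha-catenin (CTNNA1) and through it actin. In a desmosome the desmogleins and desmocollins take the place of the classical cadherin, plakoglobin (JUP) and the plakophilins bind their tails, and desmoplakin (DSP) ties the plaque to keratin filaments. In the blastocyst both kinds of junction are best known from the trophectoderm, the outer epithelium that seals the cavity and pumps fluid into it. Beta-catenin and plakoglobin are also known outside the junction as partners of transcription factors of the Wnt pathway.

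The probes are 60 bases long, and 28 of the 31 have a genome position in the files (build Btau_3.1). Signals are given below as log2 of the processed signal minus the 75th percentile of each array, taken over the 2492 probes that were well above background on all 10 arrays, so that 0 is a bright probe of that array. Each probe is called by its gene and by the base of its transcript at which it starts. Levels can be compared between arrays for 1 probe, not between probes. "Well above background" is the flag of the scanning software for a spot clearly brighter than the local background.

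The sequences that follow belong to probes whose accession, stop codon, flags or genome span bear on what they measure. The bases themselves were not aligned here. The first pair carried the name DSC2 in the scanner files, but their RefSeq accession is that of DSC3 in the RefSeq table (assembly ARS-UCD2.0), and their position (chr24:27201154-27201213 and chr24:27201258-27201316, plus strand) lies apart from the remaining DSC2 probe at chr24:27130928-27130987. They are treated as DSC3 here, and no probe carried the file name DSC3. Next comes the DSP probe that reads in 1 frame without a stop up to the stop codon at its end, set in capitals (chr23:48729152-48729211, minus strand), followed by the DSP probe that stood clear of background on a single vehicle array and no other (chr23:48742292-48742782, minus strand). The last is a CTNNB1 probe whose genome span, chr22:14168022-14171038 on the plus strand, is 3017 bases.
DSC3 2569: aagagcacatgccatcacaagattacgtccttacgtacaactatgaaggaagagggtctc
DSC3 2673: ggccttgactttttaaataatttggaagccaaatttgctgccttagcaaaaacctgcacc
DSP 8610: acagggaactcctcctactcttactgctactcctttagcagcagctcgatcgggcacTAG
DSP 2278: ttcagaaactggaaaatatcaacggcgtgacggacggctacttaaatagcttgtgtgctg
CTNNB1 1262: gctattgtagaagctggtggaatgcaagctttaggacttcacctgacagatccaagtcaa
In all, 5 of the 28 mapped probes had a genome span longer than their own length, so that an intron lay inside them. These were CDH1 2413, CDH1 2263, CTNNB1 1262, DSP 2278 and PKP2 332, and of them DSP 2278 was the only one well above background on any array.

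Detection on at least 2 arrays held for 12 of the 31 probes, on 1 array for 3 and on none for 16. Over the whole array it held on at least 2 arrays for 8936 of 43653 probes and on none for 32459. The probes seen on 9 or 10 arrays were DSG2 4932, JUP 3158, CDH1 4349, CTNNB1 3238 and CTNNA1 3517 on all 10, and DSP 9301 on 9. Each of these 6 is the probe of its gene nearest the 3′ end. The share of probes detected per array moved with the slide: 11 or 12 member probes were detected on each of the 4 arrays of slide 3, which held replicates 3 and 4 of both senktide groups, against 5 to 10 on slides 1 and 2. Over all spots that share was 18.3% to 19.6% on slide 3 and 7.17% to 13.2% on the other slides, and the 75th-percentile signal was 400.0 to 482 against 79.5 to 180.0. No vehicle array lay on slide 3, so detection of a dim probe in senktide arrays but not in vehicle arrays cannot be told apart from slide. Its part in the levels given below was not tested, other than by the fits with slide as a block and by the same-slide values.

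Keratin 8 and keratin 18, the filament proteins of the trophectoderm that desmosomes anchor, lay at 4.26 ± 0.27 and 3.54 ± 0.36 (SD, n = 10), and 6 of 11 trophectoderm markers were well above background on all 10 arrays. CDX2, TEAD4 and EOMES of the same list were so on none. Of 6 inner cell mass markers, 4 were well above background on 2 or more arrays, SOX2 and KLF4 on all 10, and NANOG and KLF17 on none. Of 6 primitive endoderm markers, 3 were so on 2 or more arrays, FN1 on all 10, and GATA4, GATA6 and SOX17 on none. The lineage that gave the junction signals was not tested. Of the markers of other tissues that could have been carried along, 0 of 5 cumulus and granulosa genes were well above background on 2 or more arrays. Among uterine or oviduct epithelium markers this was 1 of 6, CLU, while OVGP1, PAEP, SERPINA14 and FOXJ1 were at background on every array. Among stratified epithelium markers, which include the desmogleins DSG1 and DSG3, it was 1 of 7, KRT5. It was 3 of 7 leukocyte markers, of which lysozyme (LYZ) was well above background on all 10 arrays, 2 of 6 stroma markers (COL1A2 and DCN) and 1 of 3 blood markers (HBA). LYZ lay at −2.13 to −1.93 in vehicle, at −2.78 to −2.09 with the lower dose and at −2.63 to −2.39 with the higher dose. COL1A2, DCN and HBA were at background in both vehicle samples. The part of such cells in the levels given below was not tested.

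**Figure D1:**
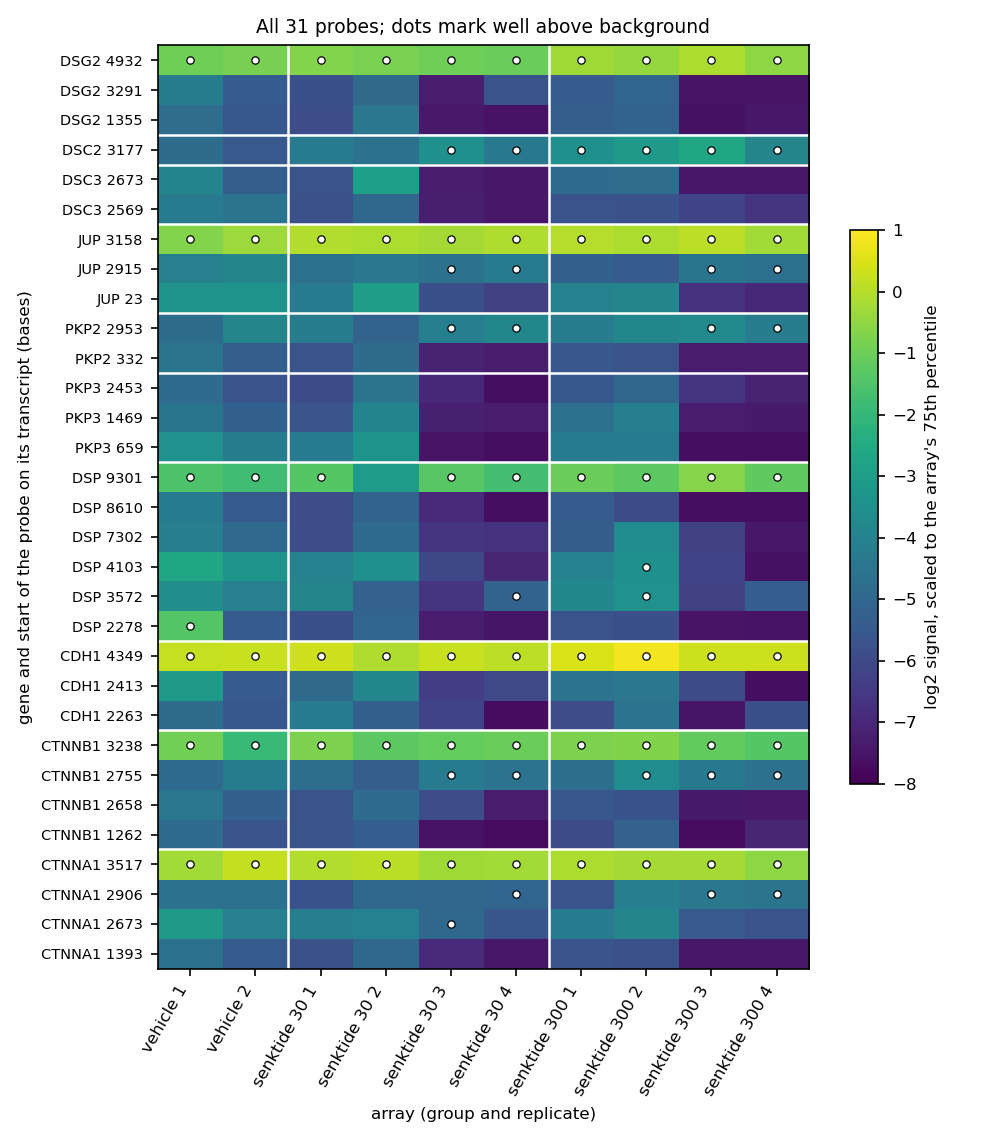
Each row is 1 of the 31 probes, ordered by gene and then from the 3′ end, each column is 1 array, and the colour gives the log2 signal scaled to the array's 75th percentile; white dots mark probes well above background. Dots run across all or nearly all arrays only in the first row of DSG2, JUP, DSP, CDH1, CTNNB1 and CTNNA1, and in the other rows they lie mostly on the slide 3 arrays (replicates 3 and 4).

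Where a gene had more than 1 probe, detection fell off away from the 3′ end. In the 9 such genes, the last probe was well above background on at least 2 arrays in 7 (77.8%), whereas 4 of the 21 other probes were (19.0%). Over all 9440 named genes with 2 or more mapped probes the same shares were 35.9% and 16.2%. JUP 3158 was detected on 10 arrays and JUP 2915, 243 bases upstream on the same transcript, on 4. CTNNB1 3238 was detected on 10 arrays and CTNNB1 2755, 483 bases upstream, on 5. CTNNA1 3517 was detected on 10 arrays and CTNNA1 2906, 611 bases upstream, on 3. DSP 9301 was seen on 9 arrays, whereas DSP 8610, 691 bases away in the genome and the probe that holds the stop codon printed above, was seen on none. The 6 bright probes also shared a low content of G and C, 35.0% to 38.3%, against a median of 45.0% (35.0% to 66.7%) in the other 25 probes. Over the array, probes well above background on all 10 arrays had a median of 43.3% and those on no array 45.0%. The labelling kit named in the labels starts cDNA synthesis from the poly(A) tail, and its part in this pattern was not tested.

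The desmosomal cadherin DSG2, the desmoglein of simple epithelia, was highest in the 300 nmol/min arrays. DSG2 4932 (chr24:26684142-26684201, minus strand) lay at −0.97 and −0.85 in the vehicle arrays and at −0.67, −0.81, −1.0 and −1.01 in the 30 nmol/min arrays. In the 300 nmol/min arrays it lay at −0.27, −0.42, −0.09 and −0.53. All 4 arrays of the higher dose lay above all 6 others, and the vehicle and 30 nmol/min arrays overlapped. Scaled to the 75th percentile or median of all probes, the higher dose lay above vehicle but overlapped the lower dose. Those scalings raised most tested probes against vehicle, as given below. The difference of the 300 nmol/min group from vehicle was 0.58 ± 0.20 (SE; 95% confidence interval 0.13 to 1.03), a ratio of 1.5, with adjusted p = 0.278 by limma over 8936 probes. Against 30 nmol/min the difference was 0.54 ± 0.16 (interval 0.18 to 0.91, adjusted p = 1.0 by limma), and 30 nmol/min against vehicle gave 0.04 ± 0.20 (adjusted p = 0.945). The DSG2 difference between doses was larger than the spread of single arrays but did not pass the test over all probes. In whole embryos, fewer cells of a type and less RNA per cell cannot be told apart. DSG2 3291 and DSG2 1355, nearer the 5′ end, were well above background on 0 arrays.

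Desmocollin 2 is the partner of DSG2 in simple epithelia. DSC2 3177 lay at −4.81 and −5.50 in vehicle, and at −4.32, −4.59, −3.50 and −4.35 in the group infused at 30 nmol/min. At 300 nmol/min the values were −3.47, −3.16, −2.66 and −3.91. It was well above background on 0 of 2 vehicle arrays, on 2 of 4 arrays at 30 nmol/min, both on slide 3, and on 4 of 4 at 300 nmol/min. The doses overlapped by 1 array. The dimmest signals that counted as well above background on the vehicle arrays were −2.56 and −3.30, against a mean of −3.30 at 300 nmol/min, so vehicle could not be ranked against the doses and no fold is given. A further fit raised every signal under its array's lowest detected signal to that floor. The differences from vehicle then turned to −0.69 at 30 nmol/min and −0.37 at 300 nmol/min. These floors were not common to the arrays, with −5.44 to −5.27 on slide 3 against the vehicle values above. These 2 differences therefore also hold the difference between floors. The difference between doses was 0.89 ± 0.33 (interval 0.15 to 1.62, adjusted p = 1.0 by limma). It fell to 0.26 with normexp background correction and quantile normalization and to 0.32 with the floors of each array. A probe with no gene name in the files, TC337574, lies 3′ of it on the same strand (chr24:27132622-27132681). It lay at −4.58 and −5.35 in vehicle, and at −3.43, −4.33, −3.43 and −4.50 in the group infused at 30 nmol/min. At the higher dose it lay at −3.43, −3.03, −2.88 and −4.26, and was well above background on 0, 3 and 3 arrays of these groups. Its vehicle level is likewise only bounded, and its dose groups overlapped, with a difference between doses of 0.52 ± 0.38 (adjusted p = 1.0 by limma); it was looked up by its position, within 2000 bases of the DSC2 probe, and whether it belongs to DSC2 is not given in the files. For DSC3, the desmocollin of stratified epithelia, both probes printed above were at background on all 10 arrays, with levels between −7.46 and −2.93.

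Of the plaque proteins, plakoglobin was detected on every array. JUP 3158 (chr19:43320075-43320134, minus strand) lay at −0.66 and −0.31 in vehicle, and at −0.05, −0.09, −0.20 and −0.07 in the group infused at 30 nmol/min. With 300 nmol/min it lay at 0.0, −0.12, 0.11 and −0.24. Both vehicle arrays were below all 8 senktide arrays, and the dose groups overlapped; scaled to the 75th percentile or median of all probes, the 30 nmol/min arrays overlapped vehicle too. The difference from vehicle was 0.38 ± 0.19 (adjusted p = 0.476) at 30 nmol/min and 0.42 ± 0.19 (interval −0.01 to 0.85, adjusted p = 0.366) at 300 nmol/min, and the doses differed by 0.04 ± 0.16 (interval −0.31 to 0.39, adjusted p = 1.0), all by limma. Without vehicle replicate 1 the differences from vehicle were 0.20 and 0.24, and relative to the median of all tested probes the one at 300 nmol/min was 0.53, or 0.05 under quantile normalization. The upstream probe JUP 2915 went the other way, at −4.07 and −3.92 in vehicle against −5.37 to −4.49 at 300 nmol/min, but neither vehicle array had it well above background, so these levels only bound it. PKP2, the plakophilin of simple epithelia and heart, was well above background on the 4 slide 3 arrays, 2 of each dose. PKP2 2953 lay at −4.82 and −3.89 in vehicle, at −4.20, −5.13, −4.12 and −3.88 with the lower dose and at −4.17, −3.88, −3.72 and −4.20 with the higher, and the groups overlapped. The unnamed probe TC327225, which overlaps PKP2 2953 on the same strand, was well above background on 8 arrays and lay between −2.88 and −2.06 over all 10. Its groups overlapped, and it differed from vehicle by −0.15 ± 0.24 at 30 nmol/min and 0.05 ± 0.24 at 300 nmol/min (adjusted p = 0.828 and 0.946 by limma). PKP3, a plakophilin found in most epithelia, was at background with all 3 of its probes on every array. These probes have no genome position and hold 55.0% to 66.7% G and C, against 35.0% to 38.3% in the 6 bright probes. Over the array, probes well above background on all 10 arrays ranged from 25.0% to 90.0%. The part of base composition in the PKP3 flags was not tested, and the flags alone do not show that the transcript was absent.

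Desmoplakin DSP 9301 (chr23:48728461-48728520, minus strand) lay at −1.53 and −1.75 in vehicle, and at −1.36, −3.02, −1.33 and −1.68 in the group infused at 30 nmol/min. The 300 nmol/min arrays had −1.01, −1.27, −0.64 and −1.18. The 300 nmol/min arrays were all above the other 6 (above vehicle only, when scaled to the 75th percentile or median of all probes), and replicate 2 of the 30 nmol/min group, the only array on which this probe was not well above background, was far below the rest. The difference between doses was 0.82 ± 0.36 (interval 0.02 to 1.63, adjusted p = 1.0 by limma), and without that array it was 0.43 ± 0.20. Against vehicle, 300 nmol/min gave 0.61 ± 0.44 (adjusted p = 0.51) and 30 nmol/min gave −0.21 ± 0.44 (adjusted p = 0.867), by limma. With slide as a block these were 0.38 and −0.44, and the first was 0.37 with normexp background correction and quantile normalization. Of the upstream probes, DSP 2278, printed above, stood at −1.42 in vehicle replicate 1 and between −7.57 and −5.07 in the other 9 arrays. Vehicle replicate 1 was thus the only array with a signal from this probe.

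**Figure D2:**
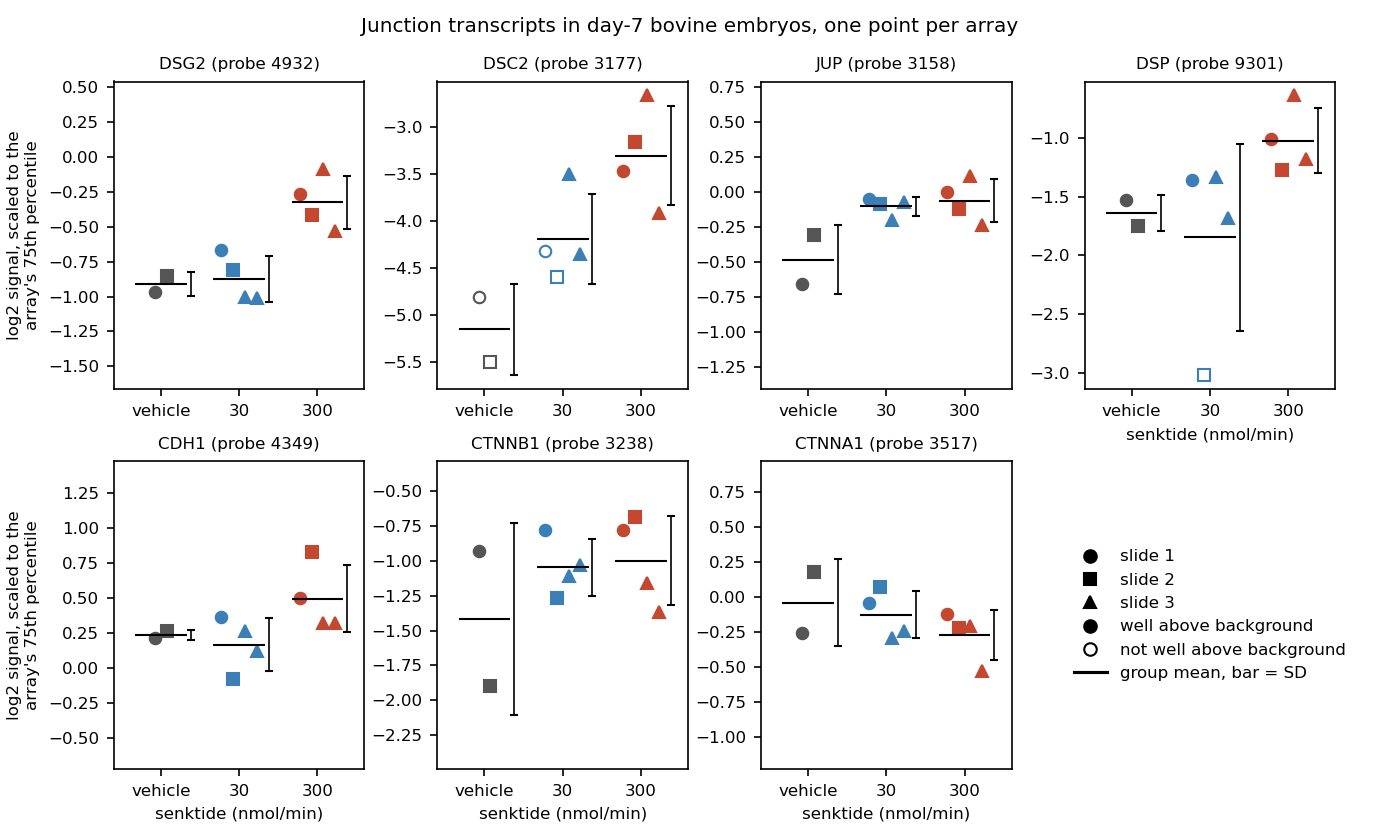
Each panel shows the probe nearest the 3′ end of 1 gene, with the log2 signal scaled to the array's 75th percentile on the vertical axis and the 3 groups on the horizontal axis; each point is 1 array, open where not well above background, shaped by slide, with the group mean and SD. In this scaling DSG2 and DSP have all 4 points at 300 nmol/min above the other 6, JUP has both vehicle points below all senktide points, and CTNNB1 and CTNNA1 overlap throughout.

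In the adherens junction, CDH1 4349 (chr18:35139739-35139798, plus strand) lay at 0.21 and 0.26 in vehicle, and at 0.36, −0.08, 0.26 and 0.12 in the group infused at 30 nmol/min. Those infused at 300 nmol/min had 0.50, 0.83, 0.32 and 0.32. All 300 nmol/min arrays were above both vehicle arrays, but they overlapped the 30 nmol/min arrays, of which replicate 1 reached 0.36. The difference from vehicle was 0.26 ± 0.22 at 300 nmol/min (adjusted p = 0.578) and −0.07 ± 0.22 at 30 nmol/min (adjusted p = 0.908) and the doses differed by 0.33 ± 0.18 (interval −0.07 to 0.73, adjusted p = 1.0), by limma. Relative to the median of all tested probes the CDH1 difference of the higher dose from vehicle was 0.37, and −0.13 under quantile normalization. CDH1 2413 and CDH1 2263, which cross introns, were at background on all arrays.

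Beta-catenin had the widest vehicle values of the 6. CTNNB1 3238 (chr22:14178353-14178412, plus strand) lay at −0.93 and −1.90 in vehicle, and at −0.78, −1.27, −1.11 and −1.03 in the group infused at 30 nmol/min. At the higher dose the values were −0.78, −0.69, −1.16 and −1.37. All 3 groups overlapped, and vehicle replicate 2 was the lowest array. The difference of 300 nmol/min from vehicle was 0.41 ± 0.31 (adjusted p = 0.523 by limma), 0.90 without vehicle replicate 1 and −0.07 without vehicle replicate 2, and the doses differed by 0.05 ± 0.25 (interval −0.52 to 0.61).

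Alpha-catenin was the one of the 6 whose mean was lowest at 300 nmol/min. CTNNA1 3517 (chr7:51298518-51298577, minus strand) lay at −0.26 and 0.18 in vehicle, and at −0.04, 0.07, −0.29 and −0.24 in the group infused at 30 nmol/min. The 4 arrays at 300 nmol/min had −0.12, −0.22, −0.21 and −0.53. The groups overlapped throughout, with differences from vehicle of −0.23 ± 0.22 at 300 nmol/min (adjusted p = 0.615) and −0.09 ± 0.22 at 30 nmol/min (adjusted p = 0.886), and of −0.15 ± 0.18 between doses (adjusted p = 1.0), by limma. At 300 nmol/min the difference from vehicle was −0.45 without vehicle replicate 1, −0.02 without vehicle replicate 2 and −0.12 with slide as a block. The differences from vehicle turned to 0.94 and 0.97 when the 75th percentile was taken over all probes, which moved the median of all tested probes to 1.06 and 0.95.

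Over the 12 member probes tested, 0 passed an adjusted p of 0.05 by limma in any comparison. The share of all 8936 tested probes that passed was 0.0% for 30 nmol/min against vehicle, 0.0112% (1 probe) for 300 nmol/min against vehicle and 0.0% between doses, so a count of 0 among 12 is near the background. At an unadjusted p under 0.05, DSC2 3177 lay higher at 30 nmol/min than in vehicle (1 of 12, against 4.94% of all tested probes), and DSC2 3177 and DSG2 4932 lay higher and JUP 2915 lower at 300 nmol/min than in vehicle (2 and 1 of 12, against 5.88% and 7.92%). DSG2 4932, DSP 9301 and DSC2 3177 lay higher at 300 than at 30 nmol/min (3 of 12, against 1.68%). In this count the DSC2 and JUP 2915 values against vehicle rest on undetected vehicle signals. Since the members were chosen with earlier results of these data known, the counts beside these shares are not a test.

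**Figure D3:**
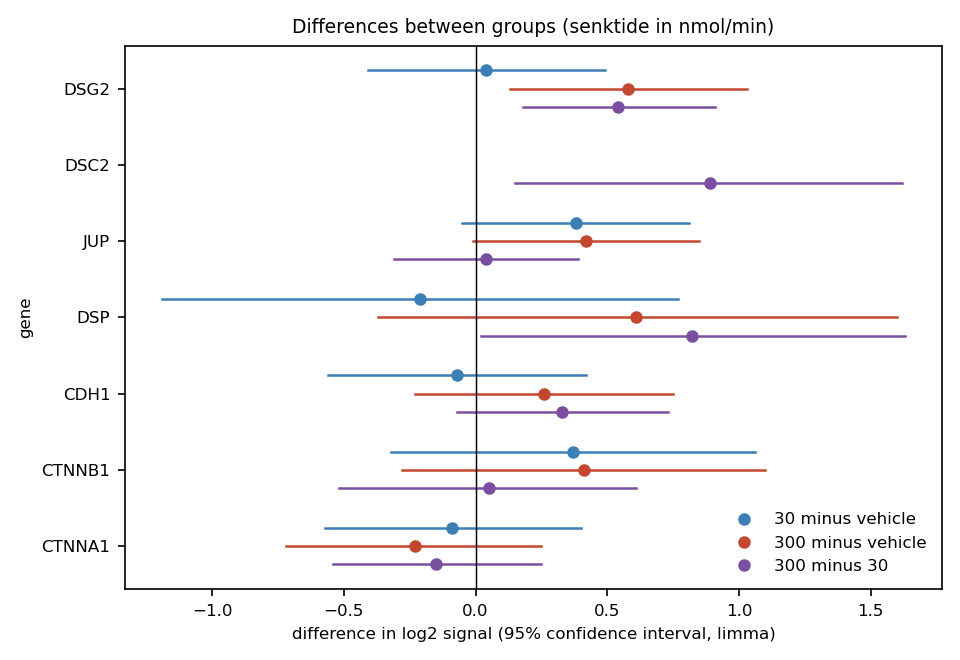
Differences in log2 signal (horizontal axis) with 95% confidence intervals from limma for the probe nearest the 3′ end of each gene (vertical axis), in the 3 comparisons; DSC2 is shown between doses only, since it was at background in vehicle. The DSG2 intervals for 300 nmol/min against vehicle (0.13 to 1.03) and against 30 nmol/min (0.18 to 0.91), the DSP interval between doses (0.02 to 1.63) and the DSC2 interval between doses (0.15 to 1.62) lie above 0, and no other interval shown leaves 0 out.

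Counting arrays rather than tests, 4 of the 6 probes seen on 9 or more arrays had all 300 nmol/min arrays above both vehicle arrays. They were those of DSG2, CDH1, DSP and JUP, and the share of all tested probes was 9.21%. The shares in this paragraph cover every probe detected on at least 2 arrays. No such share was taken over the probes detected on 9 or more arrays, so the 2 sets are unlike in brightness. These 4 kept that order under quantile normalization and when scaled to the 75th percentile or median of all probes. The all-probe scalings moved the median difference of all tested probes from vehicle to 1.06 and 1.32, and CTNNB1 gained the same order. Keeping the order there therefore does not set these 4 apart, and the 9.21% is given for the main scaling only. All 30 nmol/min arrays lay above vehicle for JUP alone, against 7.63%. All 300 nmol/min arrays lay above those at 30 nmol/min for DSG2 and DSP, against 1.54%, and these overlapped when scaled to all probes. The median difference of the 6 probes was −0.02, 0.42 and 0.19 for the lower dose against vehicle, the higher dose against vehicle and between doses, beside −0.11, −0.11 and −0.01 over all tested probes. Both comparisons with vehicle share the vehicle arrays, and each dose enters the comparison between doses as well. The member genes were chosen with earlier results of these data known, so these counts beside the shares are not a test.

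Same-numbered senktide arrays lay on the same slide, so the doses could also be compared within numbers 1 to 4. DSG2 4932 was higher at 300 than at 30 nmol/min by 0.40, 0.39, 0.91 and 0.47. DSP 9301 was higher by 0.35, 1.75, 0.68 and 0.50, where the second value rests on the array with a signal not well above background. CDH1 4349 was higher in 4 of 4 pairs too, by 0.06 to 0.92, and DSC2 3177 by 0.43 to 1.43, where numbers 1 and 2 (0.84 and 1.43) rest on 30 nmol/min signals not well above background. With both arrays well above background, DSC2 was thus higher in 2 of 2 pairs and DSP in 3 of 3, and DSG2 and CDH1 in 4 of 4. A higher signal in all 4 pairs, detected or not, was what 8.14% of all tested probes and 9.71% of the probes on all 10 arrays showed. These shares are no test of the members, which were chosen with earlier results of these data known. The signals of DSG2, DSP, CDH1 and DSC2 stayed higher in all 4 pairs under each of 4 scalings. These were the one used here, the 75th percentile and the median of all probes, and quantile normalization. JUP and the catenins were not higher in all pairs: JUP 3158 was higher in 2 of 4 pairs (−0.17 to 0.31), CTNNB1 3238 in 1 (−0.34 to 0.58) and CTNNA1 3517 in 1 (−0.29 to 0.08). Whether the cadherins and DSP differed from the catenins was not tested. Among dimmer member probes, CTNNA1 2906 was higher in 4 of 4 pairs, by 0.13 to 0.84, unlike CTNNA1 3517 of the same transcript, and it was well above background on 3 arrays. Within the slides that held vehicle, DSG2 4932 was higher at 300 nmol/min than in vehicle by 0.70 on slide 1 and 0.43 on slide 2, DSP 9301 by 0.52 and 0.48, and JUP 3158 by 0.66 and 0.19.

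**Figure D4:**
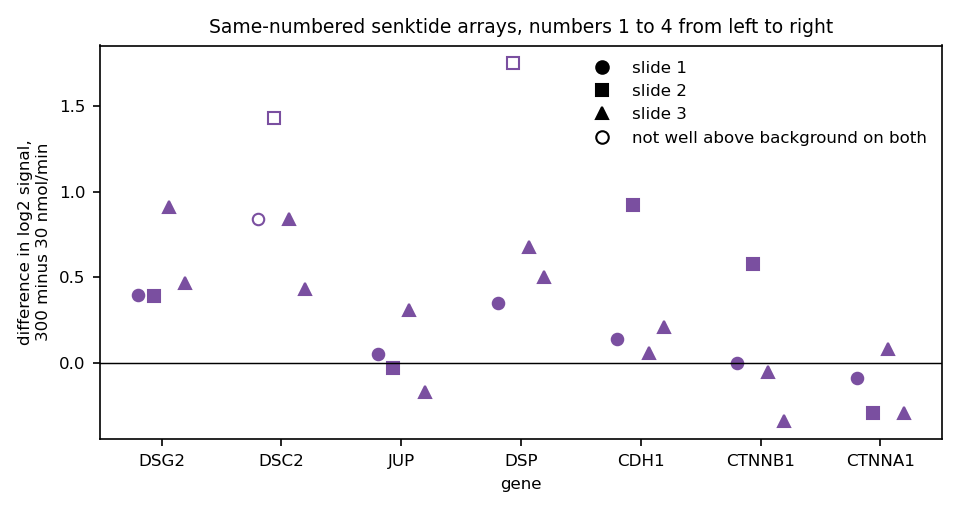
Difference in log2 signal between same-numbered arrays, 300 minus 30 nmol/min (vertical axis), for each gene (horizontal axis); points are numbers 1 to 4 from left to right, shaped by slide and open where not both arrays were well above background. All points of DSG2, DSC2, DSP and CDH1 lie above 0, from 0.06 to 1.75, and those of JUP, CTNNB1 and CTNNA1 lie on both sides of it.

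Detection of the wider junction machinery is given by count. Over the array, 3969 of 9440 named genes with 2 or more mapped probes were detected on at least 2 arrays. The counts below are therefore not read as particular to junction genes. Of 10 further desmosome genes, 9 had a probe and 3 (PKP4, PERP and PPL) were detected on 2 or more arrays, none of them on a vehicle array, while DSG1, DSG3, DSG4, DSC1 and EVPL were detected on none. Of 26 further classical cadherin and adherens junction genes, 23 had a probe and 7 were seen on at least 2 arrays. The cadherins CDH2, CDH3, CDH4, CDH5, CDH6, CDH11 and CDH13 were on none, so CDH1 was the only classical cadherin with a detected probe among those listed. CDH1 itself was detected with its last probe only, and where the probes of the other cadherins lie is not given here. Of 14 genes of beta-catenin turnover and its transcription partners, and of 14 regulators of epithelial junction transcription, 5 each were seen on at least 2 arrays; LEF1, TCF7, TCF7L1 and TCF7L2, the transcription factors that beta-catenin binds, and SNAI1, SNAI2 and TWIST1, repressors of CDH1, were on none. In all 4 lists 0 genes passed an adjusted p of 0.05 by limma in any comparison.

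Of these genes 5 were well above background on all 10 arrays. EZR, the ezrin that links membrane to actin, ranged from −1.05 to −0.73 in vehicle, from −0.79 to −0.39 with the lower dose and from −0.40 to −0.09 with the higher dose, a difference of 0.60 ± 0.20 for 300 nmol/min against vehicle (adjusted p = 0.275 by limma). Its 300 nmol/min arrays all lay above vehicle, as did those of 9.21% of all tested probes. VCL and ACTN1, which tie alpha-catenin to actin, differed by −0.15 ± 0.21 and 0.10 ± 0.17 in the same comparison (adjusted p = 0.752 and 0.802 by limma). CTNNBL1, a beta-catenin-like protein, differed by −0.38 ± 0.19 (adjusted p = 0.388 by limma). It lay at −2.09 to −1.79 with 300 nmol/min and at −1.65 to −1.54 in vehicle. No share of all tested probes is given for this order, so it is not set apart from the background. TFAP2C, a trophectoderm transcription factor, differed by 0.39 ± 0.24 (adjusted p = 0.458 by limma).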

How the data were processed

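Per the labels, Cy3-labelled total RNA of 10 samples was hybridised to 1-colour Agilent arrays, with groups and replicate numbers taken from the titles. The deposited scanner files hold an intensity per spot, background-subtracted and detrended but not scaled between arrays; per the file headers they were made with Feature Extraction 11.5.1.1 (10.5.1.1 in the submitters' processing notes). The deposited series matrix holds log2 values that equalled log2 of that intensity once the 75th percentile of all probes of the array and the probe's own median were taken off (within 0.01 for 100.0% of values after rounding, so scale, centring and direction are known; column medians −0.31 to 0.22). It served as an alternative. The deposited flags mark outlier spots and spots well above background, and 0 probe spots were saturated.

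Spots of a probe were averaged as log2 intensity without outlier spots and scaled to the 75th percentile of the 2492 probes detected (well above background) on each of the 10 arrays. A probe counted as well above background where at least 50% of its spots did. The 8936 of 43653 probes so on at least 2 arrays were fitted with limma 3.58.1 (R 4.3.3, lmFit and eBayes, 1 coefficient per group, all 10 arrays), with Benjamini-Hochberg adjustment and a threshold of 0.05. On simulated data for 300 nmol/min against vehicle, 69% of 200 probes changed by 2 on the log2 scale were recovered among 8936. Where all arrays of a group had a probe at background, its level is known only to lie under a limit, set by the lowest detected signal of each array; that gave no fold for any member. The number of arrays limits the precision.

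Names came from accessions in a RefSeq table, and 8672 probes had no name. All 10 member genes are named, each gene of the other lists by its brightest probe, with values where it was seen on all 10 arrays. The members and lists were chosen with earlier results of these data known. Same-numbered senktide arrays shared a slide, and numbers were treated as pairs between doses. Their deviations from group means correlated at r = 0.493, 0.241, 0.444 and 0.322. Differently numbered arrays of the doses gave −0.474 to 0.406. Number 1 at 30 nmol/min with number 2 at 300 nmol/min, on another slide, gave 0.401. The correlations thus do not single out the numbers as pairs. With vehicle the correlations were 0.263 and 0.287 for number 1 and −0.000391 and −0.198 for number 2. Alternatives were other scalings, background correction, filters, slide and replicate blocks, a floor per array, the deposited matrix and leaving out each array. Files were read and drawn with Python 3.11.15 (matplotlib 3.10.9, pandas 2.3.3, numpy 2.4.6).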

Additional observations from a re-analysis of the deposited data

How the results depend on the processing

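The count of member probes past the threshold stayed at 0 in 3 comparisons under all alternatives but 2. For 300 nmol/min against vehicle it was 1 under quantile normalization (DSC2, 3.17 with adjusted p = 0.04 by limma, from vehicle signals at background) and 1 under normexp with quantile normalization (DSG2, 0.47 ± 0.11, adjusted p = 0.0483), where 145 and 108 of 8936 probes passed. Over the other alternatives for DSG2 in that comparison adjusted p stayed above the threshold. The replicate block changed no call among members: DSG2 gave 0.64 for 300 nmol/min against vehicle (adjusted p = 0.363) and 0.54 between doses (adjusted p = 0.984).

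Scaling to the 75th percentile or median of all probes, and the deposited matrix, moved the median of all tested probes from −0.11 to 0.95, 1.21 and 0.95 for 30 nmol/min and to 1.06, 1.32 and 1.06 for 300 nmol/min against vehicle, and turned 3 genes higher with it. At 30 nmol/min CDH1 was then at 0.98, 1.25 and 0.98, CTNNA1 at 0.97, 1.23 and 0.97 and DSP at 0.85, 1.11 and 0.85, and at 300 nmol/min CTNNA1 at 0.94, 1.19 and 0.94. Relative to that median, the differences at 300 nmol/min against vehicle ranged over the scalings from 0.22 to 0.69 for DSG2, 0.28 to 0.72 for DSP, 0.05 to 0.53 for JUP, 0.07 to 0.52 for CTNNB1, −0.13 to 0.37 for CDH1 and −0.61 to −0.12 for CTNNA1. CTNNA1 at 30 nmol/min against vehicle also turned to 0.05 with normexp, 0.03 with a slide or replicate block and 0.05 on the slides with vehicle arrays.

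Leaving out 1 array turned the sign of 8 small differences. Against vehicle at 30 nmol/min these were CDH1 (−0.14 to 0.01), CTNNA1 (−0.31 to 0.13), CTNNB1 (−0.12 to 0.85), DSG2 (−0.03 to 0.10) and DSP (−0.38 to 0.18). At 300 nmol/min it was CTNNB1 (−0.07 to 0.90), and between doses CTNNB1 (−0.05 to 0.17) and JUP (−0.02 to 0.10). The other differences kept their sign, among them DSG2 at 300 nmol/min against vehicle (0.50 to 0.65) and between doses (0.46 to 0.61) and DSP between doses (0.43 to 0.99). JUP against vehicle ran from 0.20 to 0.56 at 30 and from 0.24 to 0.60 at 300 nmol/min, and CTNNA1 at 300 nmol/min from −0.45 to −0.02, with both ends set by the vehicle arrays. The cause of these changes was not tested. The filter at all arrays leaves out DSP and DSC2, and dim probes are limited by the detection level of vehicle arrays.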
